A study of Rattus norvegicus with 9 samples.

Results

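Bile acid synthesis and transport was followed through 10 genes in rat liver: Cyp7a1, Cyp8b1, Cyp27a1 and Cyp7b1 for synthesis, Slc27a5 and Baat for conjugation, Slc10a1 for uptake, and Abcb11, Abcb4 and Abcc2 for export into bile. The genes were matched by name to the gene symbols that the deposited table gives to its probe sets, and the set was drawn up with earlier results of these data known. All 10 were measured, of 14377 genes that the table names by a probe set of their own. Each of the 10 was read by 1 probe set, a group of short oligonucleotides against the same transcript, which names that gene alone.

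Hepatocytes make bile acids from cholesterol. In the classic pathway Cyp7a1 sets the rate and Cyp8b1 sets how much cholic acid is formed, while Cyp27a1 and Cyp7b1 open the alternative pathway that starts from the side chain. The bile acids are joined to taurine or glycine, pumped into the bile canaliculus, and returned from the gut to the liver, where the nuclear receptor FXR and its target SHP restrain their synthesis.

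Liver RNA from 9 male Sprague–Dawley rats was measured on Affymetrix expression arrays. There were 3 groups of 3 rats, and each rat had an array of its own. Vehicle rats received neither active agent. CCl4 rats were injected intraperitoneally with carbon tetrachloride, a hepatotoxin that causes fibrosis, 2 times a week for 8 weeks in olive oil. CCl4+Rot rats received the same CCl4 and, from 2 weeks after its first injection, rottlerin at 2.5 mg/kg, an activator of the BK potassium channel. The arrays come from an experiment on 18 rats, and the sources used here do not say how these 9 were picked. The comparisons ask how bile acid genes differ in livers given CCl4, and whether they differ when rottlerin is added. Livers are whole tissue, so fewer cells of a type and less RNA per cell cannot be told apart. All values below are log2 signals, and a difference of 1 is a 2-fold change.

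The tissue was checked by hepatocyte markers. Alb, Ttr, Apoa1, Serpina1 and Hnf4a were called present on all 9 arrays, and their mean log2 signal was between 14.47 and 14.67 in every liver except CCl4 replicate 3, where it was 14.01. That liver stood apart over the whole array. It had 12714 probe sets called present against 15550 to 16849 on the other 8 arrays, and a median log2 signal of 7.81 against 6.79 to 7.01. Among probe sets with an absent call in the other 8 livers, the median there was 5.72 against 4.09 to 4.59. Among probe sets with a present call in all 9 livers it was 9.53, inside the 9.51 to 9.58 of the others. Differences that turned, or moved by over 1.5 times, when this liver was left out are therefore given both ways below.

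The bases before the start of transcription were read from RefSeq for 7 of the 10 genes, on the rat build GRCr8, and the 6 that hold a motif are shown. Cyp7a1, Cyp7b1 and Abcb11 were not among the 7. Each line holds the 250 bases before the start, 5′ to 3′ on the gene's strand, and capitals mark a match to a motif of a liver transcription factor.
Cyp8b1: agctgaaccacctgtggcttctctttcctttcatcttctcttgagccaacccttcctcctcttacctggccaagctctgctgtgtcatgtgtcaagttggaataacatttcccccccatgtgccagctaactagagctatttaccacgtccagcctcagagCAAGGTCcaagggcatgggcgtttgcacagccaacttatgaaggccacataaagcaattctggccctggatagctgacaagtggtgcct
Cyp27a1: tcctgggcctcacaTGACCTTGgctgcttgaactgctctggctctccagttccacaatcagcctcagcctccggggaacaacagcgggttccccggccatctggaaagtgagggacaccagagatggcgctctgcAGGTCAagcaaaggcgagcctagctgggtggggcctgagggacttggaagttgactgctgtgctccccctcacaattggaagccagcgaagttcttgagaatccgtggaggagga
Baat: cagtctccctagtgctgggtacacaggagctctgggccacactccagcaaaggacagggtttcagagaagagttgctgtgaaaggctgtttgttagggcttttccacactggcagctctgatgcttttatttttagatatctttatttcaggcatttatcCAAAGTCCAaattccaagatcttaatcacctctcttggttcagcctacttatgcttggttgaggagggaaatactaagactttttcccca
Slc10a1: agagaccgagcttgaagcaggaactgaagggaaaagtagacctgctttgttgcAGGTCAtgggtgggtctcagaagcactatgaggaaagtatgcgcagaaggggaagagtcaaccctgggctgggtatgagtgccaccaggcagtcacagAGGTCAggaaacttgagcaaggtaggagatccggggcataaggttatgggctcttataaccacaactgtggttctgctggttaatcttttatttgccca
Abcb4: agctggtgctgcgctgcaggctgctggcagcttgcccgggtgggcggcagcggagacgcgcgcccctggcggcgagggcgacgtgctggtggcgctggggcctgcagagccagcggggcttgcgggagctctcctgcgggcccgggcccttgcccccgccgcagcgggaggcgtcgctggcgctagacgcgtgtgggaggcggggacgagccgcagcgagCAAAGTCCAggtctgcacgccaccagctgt
Abcc2: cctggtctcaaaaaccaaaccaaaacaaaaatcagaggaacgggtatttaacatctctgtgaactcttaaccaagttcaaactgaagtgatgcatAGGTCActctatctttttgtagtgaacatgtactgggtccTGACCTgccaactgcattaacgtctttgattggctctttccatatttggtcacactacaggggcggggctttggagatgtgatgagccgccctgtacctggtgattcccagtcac
The windows are chr8:130457593-130457842, minus strand, for Cyp8b1, chr9:83713282-83713531, plus strand, for Cyp27a1, chr5:68656138-68656387, minus strand, for Baat, chr6:106357945-106358194, minus strand, for Slc10a1, chr4:26164146-26164395, minus strand, for Abcb4, and chr1:252613625-252613874, plus strand, for Abcc2.

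The motifs were picked after these promoters had been read, and both strands were searched. The HNF4 motif CAAAGTCCA was found in Baat and Abcb4, and in 0.338% of 33469 rat promoters. The NR5A2 core CAAGGTC was found in Cyp8b1 and Cyp27a1, against 3.61% of all promoters. The nuclear receptor half-site AGGTCA, which overlaps the NR5A2 core by a run of bases in Cyp27a1, was found in Cyp27a1, Slc10a1 and Abcc2, against 14.1%. The TATA box TATAAA, held by 12.9% of all promoters, was in none of the 7, and Slc27a5 held none of the 4 motifs. A match is a stretch of letters and was not tested as a binding site.

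CYP7A1, cholesterol 7α-hydroxylase, starts the classic pathway. Its gene (Entrez Gene 25428) is listed in the table at chromosome 5, 24143755 to 24153298, on the minus strand, with no build named. The log2 signal of Cyp7a1 was 12.71, 11.96 and 12.20 in vehicle livers, 13.00, 13.57 and 12.99 in CCl4 livers, and 12.86, 12.96 and 13.54 in CCl4+Rot livers. All 6 livers given CCl4, with or without rottlerin, were above all 3 vehicle livers. The lowest of the 6 was 12.86 and the highest vehicle liver was 12.71. The CCl4 mean lay 0.90 above the vehicle mean (SE 0.30, 95% interval 0.21 to 1.59, 1.86-fold), with an unadjusted p of 0.0171 and an adjusted p of 0.309 by limma. Without CCl4 replicate 3 the difference was 1.00.

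With rottlerin the signal of Cyp7a1 stayed near that of CCl4 alone, a difference of -0.07 with an interval from -0.76 to 0.62, and of -0.17 without CCl4 replicate 3. Against vehicle, CCl4+Rot livers were 0.83 higher (SE 0.30, unadjusted p = 0.0244, adjusted p = 0.495 by limma). Both CCl4 groups together were 0.86 above vehicle (SE 0.26, 1.82-fold), at an adjusted p of 0.275 by limma over 31042 probe sets. In a fit where the spread follows the signal and outlying probe sets are down-weighted, limma's trend and robust options, that difference passed, with an adjusted p of 0.0462. Without CCl4 replicate 3 the same fit gave a difference of 0.91 and an adjusted p of 0.0648. Over all alternatives the adjusted p of this difference ran from 0.0462 to 0.715.

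CYP8B1, sterol 12α-hydroxylase, acts later in the same pathway. Its log2 signal was 13.32, 12.78 and 12.19 in vehicle livers, 11.39, 13.31 and 11.97 in CCl4 livers, and 12.26, 12.19 and 12.06 in CCl4+Rot livers. The groups overlapped, and the CCl4 livers were the most scattered, with an SD of 0.983 against 0.102 in CCl4+Rot livers. The difference was -0.54 for CCl4 against vehicle (interval -1.69 to 0.61) and -0.59 for CCl4+Rot against vehicle (interval -1.74 to 0.56), both with intervals that include 0. Leaving out CCl4 replicate 2, the highest of its group, took the first of these to -1.08, and no setting gave an adjusted p under 0.05.

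Cyp8b1 was set against Cyp7a1 within each liver after the values had been seen, so the comparison is a description with no test. The log2 signal of Cyp8b1 minus that of Cyp7a1 was 0.60, 0.81 and 0.00 in vehicle livers, -1.61, -0.27 and -1.02 in CCl4 livers, and -0.60, -0.76 and -1.48 in CCl4+Rot livers. Signals of different probe sets share no common scale, so the sign of the difference carries no meaning, only its shift between livers. The vehicle livers had the 3 highest values, and the group means were 0.47, -0.97 and -0.95.

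**Figure D1:**
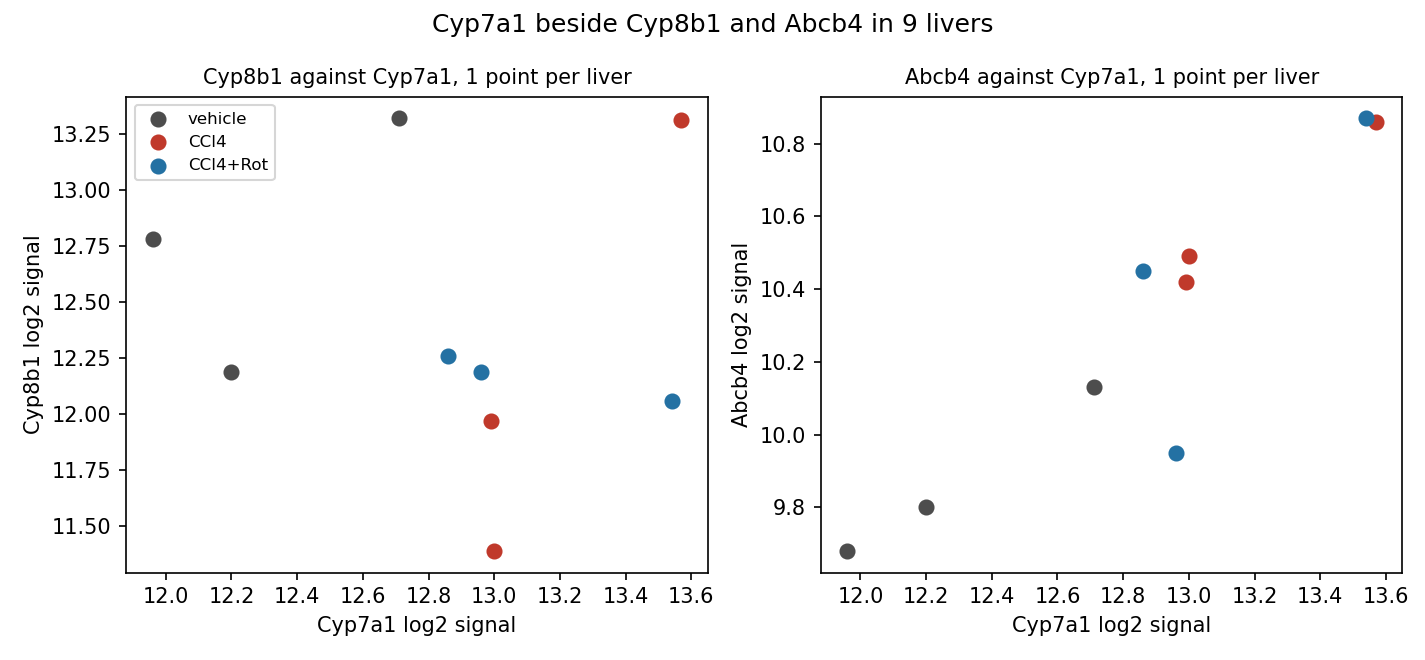
Log2 signal of Cyp8b1 (left) and Abcb4 (right) on the vertical axis against the log2 signal of Cyp7a1 on the horizontal axis, with 1 point for each of the 9 livers, coloured by group. The 3 vehicle livers have the lowest Cyp7a1 signals, Abcb4 is higher where Cyp7a1 is higher, and Cyp8b1 is not.

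CYP27A1, the mitochondrial sterol 27-hydroxylase of the alternative pathway, gave log2 signals of 13.17, 13.40 and 13.61 in vehicle livers, 13.40, 13.10 and 12.54 in CCl4 livers, and 13.39, 13.06 and 13.11 in CCl4+Rot livers. CCl4 replicate 3 was the lowest of the 9. CCl4 livers differed from vehicle by -0.38 with that liver (interval -0.97 to 0.22) and by -0.14 without it. CYP7B1, the oxysterol 7α-hydroxylase that follows CYP27A1, was read at a low level. Cyp7b1 was called present in 1 vehicle, 2 CCl4 and 3 CCl4+Rot livers. Its log2 signal was 6.24, 6.16 and 6.46, then 5.83, 6.57 and 7.75, then 6.14, 6.68 and 6.59. The highest value, 7.75, came from CCl4 replicate 3, where the probe set was called absent. CCl4 minus vehicle was 0.43 with that liver and -0.09 without it, so no direction is given for Cyp7b1.

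SLC27A5, bile acid-CoA ligase, activates bile acids before conjugation. Its gene (Entrez Gene 79111) is listed at chromosome 1, 66387831 to 66398423, on the plus strand. The log2 signal of Slc27a5 was 13.79, 13.98 and 13.91 in vehicle livers, 13.51, 13.36 and 13.24 in CCl4 livers, and 14.02, 13.76 and 13.74 in CCl4+Rot livers. All 3 CCl4 livers were below all 6 others. CCl4 livers were 0.52 lower than vehicle on the log2 scale, a difference of -0.52 (SE 0.16, 1.43-fold), with an unadjusted p of 0.0139 and an adjusted p of 0.298 by limma. CCl4+Rot livers were 0.47 higher than CCl4 livers (SE 0.16, unadjusted p = 0.0224, adjusted p = 0.724 by limma). Both comparisons use the same 3 CCl4 livers. CCl4+Rot minus vehicle was -0.05, with an interval from -0.43 to 0.33. Without CCl4 replicate 3 the first difference was -0.46 and the second 0.40, and the remaining CCl4 livers were still below all others.

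BAAT joins the activated bile acid to taurine or glycine. Baat gave log2 signals of 14.29, 14.56 and 14.26 in vehicle livers, 14.36, 14.29 and 14.07 in CCl4 livers, and 14.37, 14.51 and 14.40 in CCl4+Rot livers. The CCl4+Rot livers were all above the CCl4 livers, but by little, since the lowest of the former was 14.37 and the highest of the latter 14.36. The difference was 0.19 (interval -0.20 to 0.57), and 0.10 without CCl4 replicate 3. Against vehicle, CCl4 livers were at -0.13, at -0.04 without CCl4 replicate 3, and at 0.06 after quantile normalization.

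SLC10A1, also called NTCP, takes conjugated bile acids up from the blood. Slc10a1 gave log2 signals of 14.18, 14.22 and 14.28 in vehicle livers, 14.27, 14.04 and 13.75 in CCl4 livers, and 14.42, 14.20 and 14.17 in CCl4+Rot livers. The vehicle livers lay within 0.11 of each other, and the CCl4 livers were spread over 0.52, with CCl4 replicate 3 the lowest. CCl4 minus vehicle was -0.21 (interval -0.63 to 0.22) and -0.07 without that liver. CCl4+Rot minus CCl4 was 0.24 (interval -0.18 to 0.67) and 0.11 without it.

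For CCl4 against vehicle, the estimates for the transporters of the canalicular membrane went in different directions. None was called, and no test compared these genes with each other. ABCB11, the bile salt export pump, gave log2 signals of 12.83, 12.81 and 12.91 in vehicle livers, 13.33, 12.87 and 12.84 in CCl4 livers, and 12.98, 12.95 and 13.05 in CCl4+Rot livers. The vehicle livers lay within 0.11 and the CCl4+Rot livers within 0.10 of each other, and the latter were all higher, by a mean of 0.15 (interval -0.27 to 0.56). For CCl4 against vehicle Abcb11 was at 0.16 (interval -0.25 to 0.58), at 0.25 without CCl4 replicate 3, and at -0.20 after centring each array on its median.

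ABCB4, which moves phosphatidylcholine into bile, was higher. Its gene (Entrez Gene 24891) is listed at chromosome 4, 22071633 to 22128783, on the minus strand. The log2 signal of Abcb4 was 10.13, 9.68 and 9.80 in vehicle livers, 10.49, 10.86 and 10.42 in CCl4 livers, and 10.45, 9.95 and 10.87 in CCl4+Rot livers. All 3 CCl4 livers were above the vehicle livers, and 1 CCl4+Rot liver, replicate 5, lay among them. The CCl4 group was 0.72 above vehicle (SE 0.27, 1.64-fold, unadjusted p = 0.0321, adjusted p = 0.36 by limma), and 0.80 without CCl4 replicate 3. Both CCl4 groups together were 0.64 above vehicle (SE 0.24, unadjusted p = 0.029, adjusted p = 0.376 by limma).

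ABCC2, also called MRP2, exports conjugated bilirubin and divalent bile acids. Abcc2 gave log2 signals of 12.25, 12.41 and 12.42 in vehicle livers, 12.26, 11.94 and 11.72 in CCl4 livers, and 12.41, 12.33 and 11.87 in CCl4+Rot livers. The groups overlapped. The CCl4 mean minus the vehicle mean was -0.39 (interval -0.89 to 0.12), and -0.26 without CCl4 replicate 3, the lowest of the 9.

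**Figure D2:**
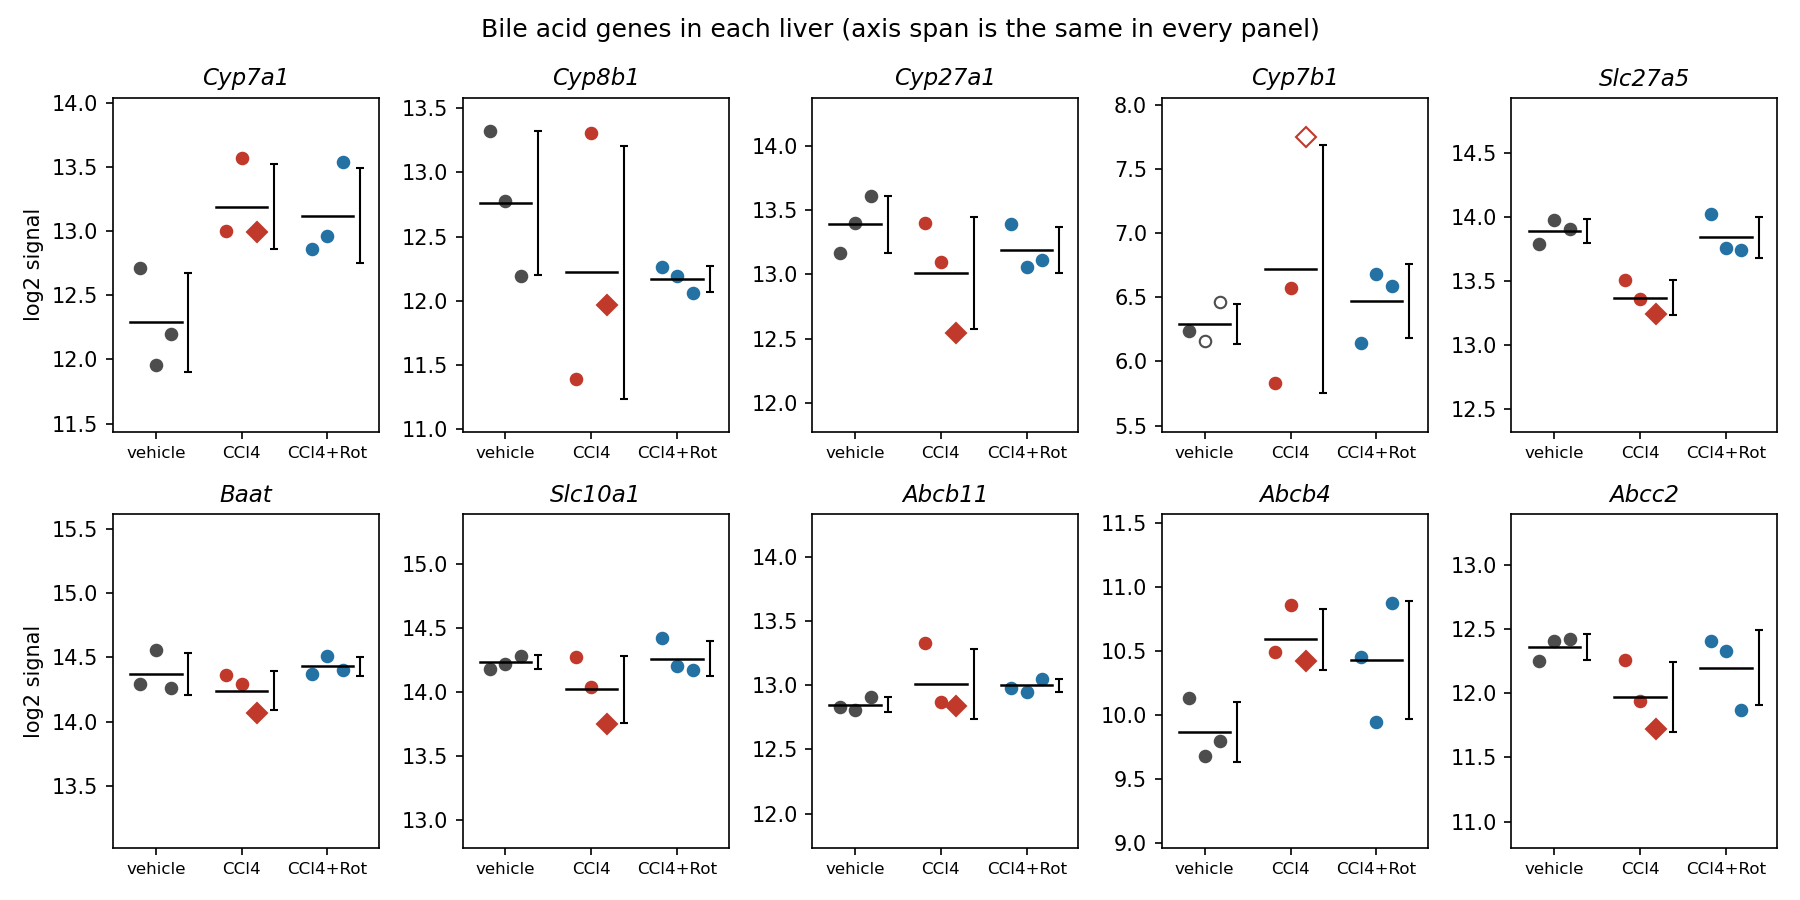
Log2 signal of each of the 10 genes in each liver, by group; short lines are group means, bars beside them are 1 SD (n = 3), diamonds are CCl4 replicate 3 and open symbols are arrays where the probe set was not called present. Every panel spans the same number of log2 units. Cyp7a1 is higher in all 6 livers given CCl4, and Slc27a5 is lower in the 3 CCl4 livers than in the 6 others.

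None of the 10 genes passed the threshold of a Benjamini-Hochberg adjusted p under 0.05 and a change of at least 1.5-fold by limma, in any of 4 comparisons. Few probe sets of the whole array did: 0% in CCl4 against vehicle, 0.00322% in CCl4+Rot against CCl4, 0.0258% in CCl4+Rot against vehicle and 0.00966% in both CCl4 groups against vehicle. At an unadjusted p under 0.05, 3 of 10 genes stood out between CCl4 and vehicle, namely Cyp7a1, Slc27a5 and Abcb4, where 12.4% of all probe sets did. For CCl4+Rot against CCl4 it was 1 gene, Slc27a5, against 6.63% of probe sets. For CCl4+Rot against vehicle it was 1 gene, Cyp7a1, against 8.31%. For both CCl4 groups against vehicle it was 2 genes, Cyp7a1 and Abcb4, against 11.2%.

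By the trend and robust fit, 1.12% of probe sets passed the threshold between CCl4 and vehicle, 0.00322% between CCl4+Rot and CCl4, and 0.776% between CCl4+Rot and vehicle, and none of the 10 genes was among them. Between both CCl4 groups and vehicle 1.82% passed, and 1 of the 10 genes, Cyp7a1, did. The groups did not overlap for 3 of 10 genes between CCl4 and vehicle, against 18.3% of all probe sets. They did not overlap for 2 of 10 genes between CCl4+Rot and CCl4, against 11.6%. They did not overlap for 2 of 10 between CCl4+Rot and vehicle, against 21.1%, and for 1 of 10 between both CCl4 groups and vehicle, against 8.05%. With 10 genes each gene is 10% of them, so these counts are not read as a result about the group. Without CCl4 replicate 3 the trend and robust fit passed none of the 10 genes in any comparison. The counts at the unadjusted p and of genes whose groups do not overlap were the same without that liver. The shares of all probe sets were then 11.5% and 30% for CCl4 against vehicle, and 6.56% and 22.8% for CCl4+Rot against CCl4. For CCl4+Rot against vehicle these shares were 11.6% and 21.1%, and for both CCl4 groups against vehicle 13.5% and 10.9%.

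The median log2 change of the 10 genes was -0.17 for CCl4 against vehicle, 0.08 for CCl4+Rot against CCl4, 0.05 for CCl4+Rot against vehicle and -0.06 for both CCl4 groups against vehicle. These medians were -0.08, 0.02, 0.05 and 0.00 without CCl4 replicate 3. Over all probe sets the medians were 0.18, -0.12, 0.01 and 0.08, and over the 11231 probe sets present on all arrays they were -0.01, 0.02, -0.01 and -0.01. The centring of each array on its median moved the median change over all probe sets by -0.36 for CCl4 against vehicle and by 0.25 for CCl4+Rot against CCl4. Where 3 livers are compared with 3, the smallest p of an exact two-sided permutation test is 0.1, so no single gene could reach 0.05 there. This limit does not cover the comparison of both CCl4 groups with vehicle, which has more livers.

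**Figure D3:**
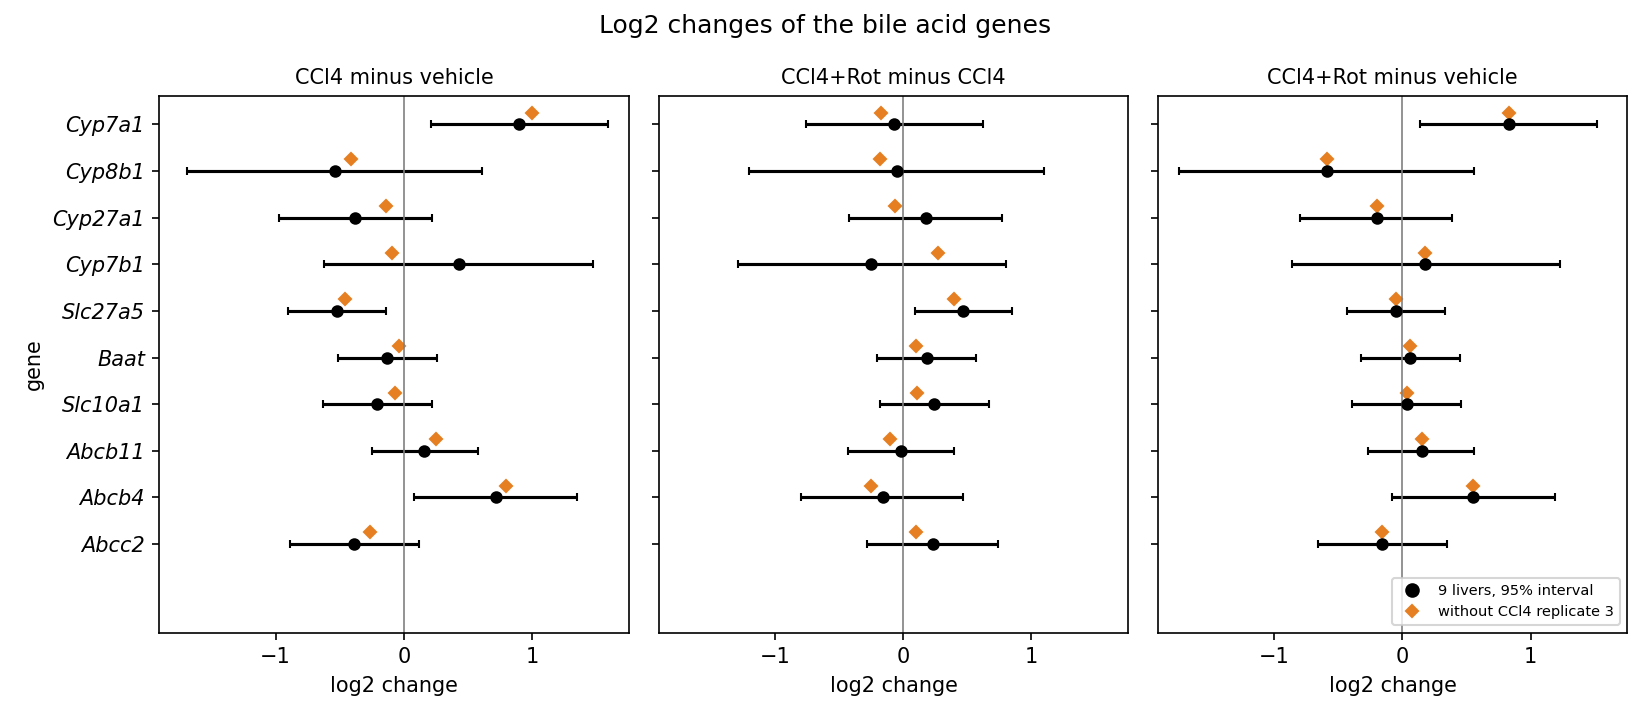
Log2 change of each of the 10 genes in 3 comparisons of the groups; points are limma estimates over 9 livers, bars are 95% intervals and diamonds are the estimates without CCl4 replicate 3. The intervals of Cyp7a1, Slc27a5 and Abcb4 leave out 0 for CCl4 minus vehicle, and that of Slc27a5 leaves out 0 for CCl4+Rot minus CCl4.

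Some of the genes varied together from liver to liver. Pearson's r between log2 signals over the 9 livers is given as a description, and these livers share their group differences and CCl4 replicate 3. Cyp7a1 and Abcb4 had an r of 0.924, and 0.923 without CCl4 replicate 3. Cyp27a1 and Slc10a1 had 0.887, which was 0.66 without it. Slc10a1 had 0.834 with Abcc2 and then 0.705, and 0.823 with Slc27a5 and then 0.698. CCl4 replicate 3 had the lowest signal of the 9 livers for Cyp27a1, Slc27a5, Baat, Slc10a1 and Abcc2, 5 of the 10 genes, and the highest for Cyp7b1.

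The genes of the array most like Cyp7a1 over the 9 livers, of 8989 genes called present on at least 6 arrays, were Ets2 (r = 0.971), Stk10 (0.97), Capg (0.967), Prr13 (0.964) and Kifc3 (0.96). Each was higher in CCl4 than in vehicle livers, by 0.44 for Ets2, 0.73 for Stk10, 0.96 for Capg, 0.91 for Prr13 and 1.24 for Kifc3. These genes were picked by r over the same livers, where Cyp7a1 was higher with CCl4, so their direction adds no separate support. Their r with Cyp7a1 was 0.967 to 0.978 without CCl4 replicate 3. Those most like Slc10a1 were Cyp4f1 (r = 0.967), Ndufa7 (0.949), LOC498368 (0.947), Mrps9 (0.946) and Atg14 (0.941). These 5 values for Slc10a1 were 0.883, 0.824, 0.812, 0.814 and 0.787 without that liver.

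The transcription factors and receptors that control bile acid genes were read from a list of 14, of which 13 were measured. None was called by limma at the adjusted threshold in any comparison. Of the 12 called present on at least 1 array of each group, 11 had a lower mean in CCl4 than in vehicle livers, Foxa2 being the exception, where 46% of all probe sets so called were lower. The count was 8 of 12 without CCl4 replicate 3, against 51.9%. The median change over all 13 was -0.26, and -0.18 without CCl4 replicate 3. At an unadjusted p under 0.05 there were 2 of 13, both lower, against 12.4% of all probe sets, and 1 of 13 without that liver.

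C/EBPα, a factor of differentiated hepatocytes, separated the CCl4 group. Cebpa gave log2 signals of 12.37, 12.08 and 12.28 in vehicle livers, 11.45, 11.26 and 11.92 in CCl4 livers, and 12.62, 12.47 and 12.49 in CCl4+Rot livers. The 3 CCl4 livers were below all 6 others, as they were for Slc27a5. CCl4 minus vehicle was -0.70 (SE 0.21, unadjusted p = 0.0106, adjusted p = 0.28 by limma), and CCl4+Rot minus CCl4 was 0.98 (SE 0.21, unadjusted p = 0.00173, adjusted p = 0.608 by limma). Without CCl4 replicate 3 they were -0.89 and 1.17, and both then passed by the trend and robust fit, with adjusted p of 0.0162 and 0.0154 by limma, where 1.01% and 0.0354% of all probe sets passed. With all 9 livers neither passed. Of the 4 other probe sets of Cebpa, 3 gave 0.78 to 1.07 for CCl4+Rot minus CCl4 and the dimmest gave 0.39.

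PXR, the pregnane and bile acid sensor, was lower in both CCl4 groups. Nr1i2 gave log2 signals of 11.13, 11.59 and 11.68 in vehicle livers, 10.44, 11.15 and 10.51 in CCl4 livers, and 10.72, 10.69 and 10.09 in CCl4+Rot livers. Only CCl4 replicate 2, at 11.15, reached the vehicle range. Both CCl4 groups minus vehicle was -0.87 (SE 0.25), with an adjusted p of 0.264 by limma and of 0.0425 by the trend and robust fit, and without CCl4 replicate 3 it was -0.82, with an adjusted p of 0.0719 by the latter fit.

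The receptors of the feedback loop gave no called difference. FXR (Nr1h4) was at -0.32 for CCl4 against vehicle (interval -0.88 to 0.24), and at -0.12 without CCl4 replicate 3. SHP (Nr0b2), its target, ranged from 8.95 to 11.94 among the vehicle livers alone, and was at -0.14 (interval -1.92 to 1.64). Leaving out CCl4 replicate 3 took it to 0.41, so no direction is given for Nr0b2. Hnf4a was at -0.41 (interval -0.87 to 0.05). Its dimmer probe sets, called present on all 9 arrays, were at -0.57 (unadjusted p = 0.0291 by limma) and -0.31. The FGF receptor Fgfr4 was at -0.26. Prox1, a repressor of Cyp7a1, was at -0.23 for CCl4 against vehicle (unadjusted p = 0.276 by limma). For CCl4+Rot against vehicle Prox1 was at -0.64 (SE 0.20, unadjusted p = 0.0128, adjusted p = 0.404 by limma). Ppara was called present on no array, and Rxra on 2 vehicle, 2 CCl4 and no CCl4+Rot arrays.

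Of 12 further enzymes of bile acid synthesis, none was called, and 2 had an unadjusted p under 0.05 for CCl4 against vehicle, which is 16.7% of them against 12.4% of all probe sets. Acot8, a peroxisomal thioesterase, was at 0.50 (SE 0.21, unadjusted p = 0.0449, adjusted p = 0.393 by limma). Akr1c14, the 3α-hydroxysteroid dehydrogenase, was at -0.41 (SE 0.18, unadjusted p = 0.0495, adjusted p = 0.404 by limma), and at -0.27 without CCl4 replicate 3. Ch25h, which makes an oxysterol, was at 0.59 for both CCl4 groups against vehicle (SE 0.24, unadjusted p = 0.041, adjusted p = 0.419 by limma). The median of the 12 was -0.11, and 0.02 without CCl4 replicate 3. Cyp46a1 was called present on no array.

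The organic anion transporters of the basolateral membrane, which share uptake with Slc10a1, all had a lower mean in CCl4 than in vehicle livers. Slco1a1 was at -0.32, Slco1b2 at -0.22 (-0.12 without CCl4 replicate 3) and Slco2b1 at -0.29, and none was called or had an unadjusted p under 0.05. For CCl4+Rot against CCl4, Slco1b2 was at 0.26 and Slco2b1 at 0.33, and the groups did not overlap for either, as for 11.6% of all probe sets. Leaving out CCl4 replicate 3 put them at 0.16 and 0.30, still without overlap, as for 22.8% of all probe sets. Of 3 measured carriers of basolateral efflux, Abcc4 was at 0.58 for CCl4 against vehicle (unadjusted p = 0.057, adjusted p = 0.418 by limma), Abcc3 was called present on no array and Slc51a only in CCl4 replicate 3.

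Among the other carriers of the canalicular membrane, the sterol half-transporter Abcg5 stood out. Its log2 signal was 8.99, 9.46 and 8.20 in vehicle livers, 10.67, 9.34 and 9.42 in CCl4 livers, and 7.66, 6.65 and 7.81 in CCl4+Rot livers. All 3 CCl4+Rot livers were below the 6 others. CCl4+Rot minus CCl4 was -2.44 for Abcg5 (SE 0.51, 5.41-fold, unadjusted p = 0.0016, adjusted p = 0.608 by limma), and -2.63 without CCl4 replicate 3. CCl4+Rot minus vehicle was -1.51 (SE 0.51, unadjusted p = 0.019, adjusted p = 0.458 by limma). Its partner Abcg8 was called present in 2 vehicle and 2 CCl4 livers and in no CCl4+Rot liver. CCl4+Rot minus CCl4 was -2.17 for Abcg8 (interval -3.61 to -0.73, 4.49-fold, unadjusted p = 0.00867, adjusted p = 0.689 by limma). For CCl4 against vehicle Abcg8 was at 1.66 (unadjusted p = 0.029, adjusted p = 0.354 by limma), and at 1.53 with an unadjusted p of 0.0773 by limma without CCl4 replicate 3. The drug efflux pump Abcb1a was at 1.18 (unadjusted p = 0.186 by limma), and at 2.04 with an unadjusted p of 0.013 and an adjusted p of 0.325 by limma without that liver. Its other probe set, called present on all 9 arrays, was at 1.22 (unadjusted p = 0.0211 by limma). Abcg2 was at 0.51 with CCl4 replicate 3 and 0.30 without it, and Atp8b1 at -0.27.

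**Figure D4:**
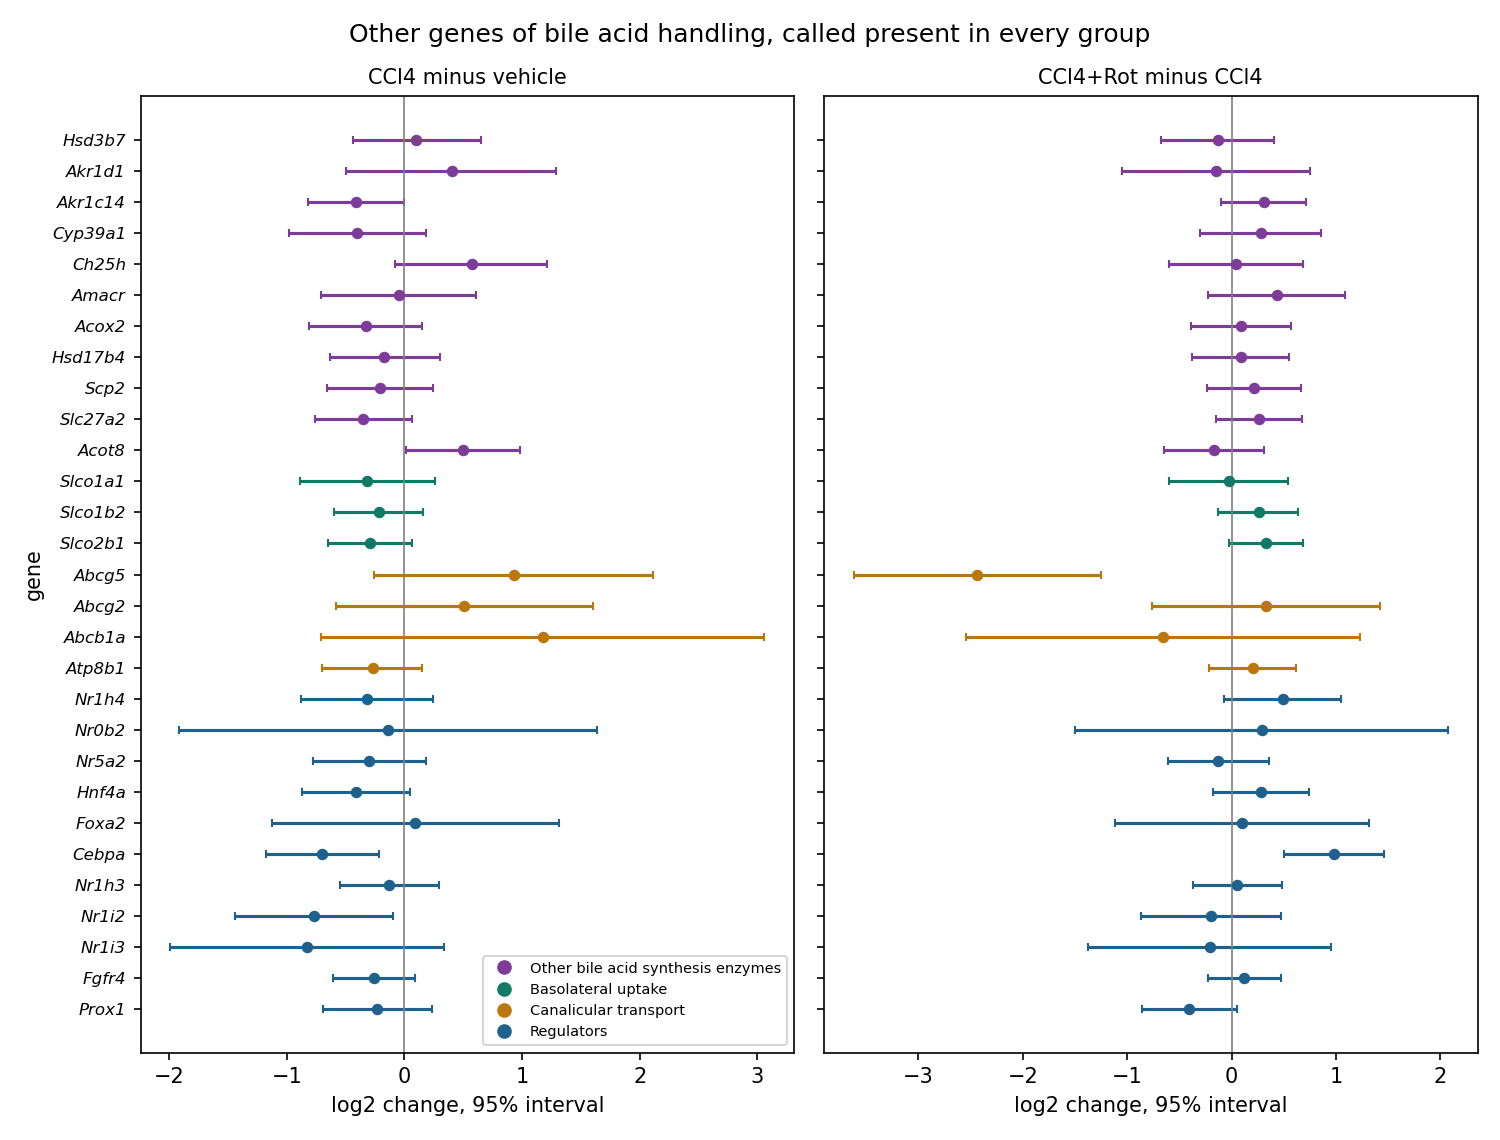
Log2 changes with 95% intervals of 29 other genes of bile acid handling that were called present in all groups, coloured by role, for CCl4 minus vehicle (left) and CCl4+Rot minus CCl4 (right). On the left the points of the regulators lie below 0 except Foxa2, at 0.09 (0.01 without CCl4 replicate 3). On the right Abcg5 at -2.44 and Cebpa at 0.98 have intervals that leave out 0.

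Markers of the cells that a liver holds were read beside these genes, and their part in the results was not tested. The mean log2 signal of 6 myofibroblast genes was 8.44 to 9.21 in vehicle, 9.93 to 10.57 in CCl4 and 10.39 to 10.71 in CCl4+Rot livers. For CCl4 against vehicle, 5 of the 6 had an unadjusted p under 0.05, all higher, against 12.4% of all probe sets, and 4 of 6 without CCl4 replicate 3, against 11.5%. None was called by limma at the adjusted threshold, and 3 passed by the trend and robust fit, as did 1.12% of all probe sets: Col1a1 at 2.29, Col3a1 at 1.17 and the protease inhibitor Timp1 at 1.60. Those 3 also passed without CCl4 replicate 3. Acta2, the first of that list, was at 0.78, and at 0.34 without that liver, where the array called it marginal. The mean of 5 periportal hepatocyte genes was 13.63 to 13.78 in vehicle, 12.15 to 13.10 in CCl4 and 12.47 to 13.36 in CCl4+Rot livers, below vehicle in all 6. Hal, Sds and Gls2 were at -1.21, -1.99 and -0.96 for CCl4 against vehicle, and at -1.08, -1.30 and -0.79 without CCl4 replicate 3. Pck1 and Ass1, the others of that list, were at -0.41 and -0.49, and at -0.16 and -0.34 without it. None of the 5 was called by limma or passed by the trend and robust fit in that comparison. The mean of 3 pericentral genes was 13.39 to 13.48 in vehicle, 12.36 to 13.06 in CCl4 and 13.30 to 13.55 in CCl4+Rot livers, lowest in CCl4 as for Slc27a5 and Cebpa, and Oat, at -1.29, passed by the trend and robust fit. Oat was at -1.17 without CCl4 replicate 3 and did not pass, with an adjusted p of 0.168 by that fit. Glul, the first of that list, was at -0.58 (unadjusted p = 0.14 by limma). Cyp2e1, the remaining pericentral gene, was at -0.33, and at -0.05 without CCl4 replicate 3.

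Hepatocyte markers differed less, and the cholangiocyte and macrophage markers were mixed. By the brightest probe set of each gene, none of the 5 hepatocyte markers had an unadjusted p under 0.05 for CCl4 against vehicle. Alb was at -0.14, Ttr at -0.11, Apoa1 at 0.09 and Serpina1 at -0.16. Those 4 were, without CCl4 replicate 3, at 0.20, 0.08, 0.18 and 0.03, so the direction turned for all but Apoa1. Of 4 measured cholangiocyte genes, Krt19 was at 0.20 (-0.10 without CCl4 replicate 3) and Epcam at 0.48 (unadjusted p = 0.0633 by limma). The groups did not overlap for Epcam, as for 18.3% of all probe sets. Without CCl4 replicate 3 Epcam was at 0.60 (unadjusted p = 0.0357, adjusted p = 0.399 by limma). Krt7 was called present on no array and Cftr on 3. The mean log2 signal of all 4, which takes in these weakly detected genes, was 6.04 to 6.44 in vehicle, 5.93 to 7 in CCl4 and 6.02 to 6.44 in CCl4+Rot livers. The mean of 3 macrophage genes was 10.34 to 10.77, 10.46 to 10.79 and 10.83 to 11.02 in the 3 groups. For CCl4 against vehicle Cd68 was at 0.68 (unadjusted p = 0.0288 by limma, and 0.0679 without CCl4 replicate 3). Cd163 was at -0.02 (-0.08 without CCl4 replicate 3) and Clec4f, a marker of Kupffer cells, at -0.45. In both CCl4 groups against vehicle Cd68 was at 0.77 and passed by the trend and robust fit, as did 1.82% of all probe sets. Without CCl4 replicate 3 Cd68 was at 0.74 there and did not pass, with an adjusted p of 0.0686 by that fit. For CCl4+Rot against CCl4 Clec4f was at 0.56 (unadjusted p = 0.0221, adjusted p = 0.724 by limma), with no overlap of the groups, and at 0.47 without CCl4 replicate 3. Of 4 cytokine genes Il6 was called present on no array, Tnf and Ccl2 on 1 each, and Il1b was at 0.17.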

How the data were processed

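The authors deposited log2 signals and detection calls for 31099 probe sets on 9 arrays of biotin-labelled liver cRNA. The submitters' processing notes name MAS5 and affy, versions not given. Antilogs have the same 2% trimmed mean, 500, on each array, so arrays were scaled before deposit. The genome build of the table's coordinates is not given in the sources used here. Without further normalization and without the 57 control probe sets, limma 3.58.1 (R 4.3.3) fitted 3 group means to 31042 probe sets, with Benjamini-Hochberg adjustment over all of them. A call needed an adjusted p under 0.05 and 1.5-fold. Of several probe sets naming a gene alone, the brightest by mean was used. Pathway and marker lists held 74 genes, 65 of them measured. For a gene present in 1 group only, the lowest present signal of each array stood in for its own where that was lower. This left the fold of Abcg8 unchanged.

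All members were named, with the called genes of each list, or up to 4 of the smallest p, the first gene of each marker list, and the 5 genes most like Cyp7a1 and Slc10a1; further list genes were named after their values were seen. Members and lists were chosen with earlier results of these data known. The fit was tested on simulated data. Labels give each array to a separate rat, and 3 arrays a group limit the precision.

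Alternatives were quantile normalization, median centring, leaving out the lowest 30% of probe sets, and trend and robust estimation with statmod 1.5.0. Others were an equal-variance t-test, only the groups compared, no fold threshold, a mean over each gene's probe sets, the replicate block and each array left out. The study's methods name a t-test for its data in general, and for the arrays only a 1.5-fold difference. Chosen after seeing the data were array weights, probe sets present on at least 3 arrays, and the robust fit, list counts and shares of lower means without CCl4 replicate 3. Promoters are from RefSeq, GRCr8. A gene and a motif are not reported here.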

Additional observations from a re-analysis of the deposited data

How the results depend on the processing

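The count of members called stayed at 0 under each alternative except the trend and robust fit, which called 1, Cyp7a1, for both CCl4 groups against vehicle, and none without CCl4 replicate 3. An equal-variance t-test, unadjusted p under 0.05 with 1.5-fold, passed 2 members for CCl4 against vehicle and 2 for both CCl4 groups against vehicle. Of all 31042 probe sets, 1774 and 2107 passed the same rule in these comparisons. No member passed after adjustment. The median change of the members for CCl4 against vehicle was 0.01 after quantile normalization, -0.53 after median centring and -0.02 with array weights. Median centring moved it to 0.33 for CCl4+Rot against CCl4 and to -0.29 for both CCl4 groups against vehicle.

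None of the differences that changed direction had been called. After quantile normalization they were Baat 0.06 for CCl4 against vehicle, Cyp7b1 0.02 for CCl4+Rot against CCl4, Slc27a5 0.01 for CCl4+Rot against vehicle, and Baat 0.09 and Slc10a1 0.03 for both CCl4 groups against vehicle. After median centring, Abcb11 was -0.20 for CCl4 and -0.08 for both CCl4 groups against vehicle, Baat -0.05 and Slc10a1 -0.07 for CCl4+Rot against vehicle, and for CCl4+Rot against CCl4 Cyp7a1 was 0.18, Cyp8b1 0.20, Cyp7b1 0.00, Abcb11 0.23 and Abcb4 0.09. The robust fit without CCl4 replicate 3 gave Cyp7b1 -0.09 for CCl4 against vehicle and 0.27 for CCl4+Rot against CCl4, Cyp27a1 -0.06 for the latter, and Baat 0.01 for both CCl4 groups against vehicle. Array weights gave Cyp8b1 0.06 for CCl4 against vehicle and Abcb11 0.03 for CCl4+Rot against CCl4.

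With 1 array left out in turn, Cyp7b1 ran from -0.09 to 0.87 for CCl4 against vehicle. For CCl4+Rot against CCl4, Cyp7a1 ran from -0.28 to 0.12, Cyp8b1 from -0.47 to 0.49, Cyp27a1 from -0.06 to 0.37, Cyp7b1 from -0.69 to 0.27, Abcb11 from -0.10 to 0.14 and Abcb4 from -0.38 to 0.08. For CCl4+Rot against vehicle, Slc10a1 ran from -0.04 to 0.08 and Abcc2 from -0.26 to 0.01, and Baat from -0.09 to 0.06 for both CCl4 groups against vehicle. Where a cause is not shown by an array left out, the cause was not tested.

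Replicate numbers 3, 4 and 5 recur between groups. The deviations of same-numbered arrays correlated at -0.0896, -0.00466 and -0.0125, and those of differently numbered arrays at -0.146 to 0.135. The labels do not say what a number marks, and so few pairs cannot tell whether same-numbered samples share more than it. The replicate block had a consensus correlation of -0.0327, left 0 members called and a median of -0.17 for CCl4 against vehicle, and changed no call.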
